A study of Mus musculus with 16 samples.

Results

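The genes described here are 7 transcription factors of cochlear hair cells, Atoh1, Pou4f3, Gfi1, Barhl1, Lhx3, Insm1 and Ikzf2, chosen by symbol from the 47729 genes with values. RNA was measured in 16 libraries from P4 mouse cochleae, in 4 groups of 4, which are input and IP (immunoprecipitated) libraries from control mice and from DTR mice. Control mice were GLAST CreERT/+; Rpl22 HA/+ and DTR mice were Lgr5 DTR/+; GLAST CreERT/+; Rpl22 HA/+, so that both groups carried 1 Cre allele and 1 allele of the HA-tagged ribosomal protein Rpl22, and the DTR group alone carried the diphtheria toxin receptor at the Lgr5 locus. By the methods of the study, both groups received diphtheria toxin and tamoxifen at P1, whereas the sample labels give the controls as untreated. Each of the 8 pools held 8 cochleae of 4 mice from which the lateral wall, Reissner's membrane and the spiral ganglia had been dissected away, and 5% of each homogenate was kept as input while 95% went into the anti-HA IP. The input is RNA of all cells of the dissected duct. The IP is RNA on tagged ribosomes of the cells that GLAST-Cre recombined, which are inner phalangeal cells and a part of the greater epithelial ridge (GER), and an IP can also carry over untagged RNA.

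A committed hair cell turns on Atoh1, a basic helix-loop-helix factor that is required for hair cells to form and that binds E-box DNA. Pou4f3, Gfi1, Barhl1 and Lhx3 follow during differentiation and serve the survival and maturation of the cells, and Insm1 and Ikzf2 act in outer hair cells, Insm1 early and Ikzf2 later. Supporting cells next to hair cells hold Atoh1 down through Notch signals and the Hes and Hey repressors, which makes the gene a common readout of conversion of supporting cells.

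Atoh1 lies on chromosome 6 (GRCm38, GENCODE M21) from 64729125 to 64731245 on the plus strand and has a single exon. Insm1 also has 1 exon, on chromosome 2 from 146221921 to 146225020 on the plus strand. Gfi1 (chromosome 5, 107716657 to 107726036), Barhl1 (chromosome 2, 28907679 to 28916668), Lhx3 (chromosome 2, 26200212 to 26208289) and Ikzf2 (chromosome 1, 69531214 to 69687245) lie on the minus strand, and Pou4f3 lies on chromosome 18. The library kit does not mark strand, and 5 other genes overlap members. These genes were A430072P03Rik at Gfi1, Gm27196 at Lhx3, and Gm28112, Gm29112 and Gm29114 at Ikzf2, and none exceeded 0.675 CPM in any library.

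RefSeq promoter windows (GRCm38.p6, 250 bases before to 50 after a start site) were at hand for 4 members, in 7 windows. The windows of Atoh1, Gfi1 and Barhl1 are shown because the first of these genes and the other two stood in opposite directions between IP and input, and capitals mark the E-box letters CANNTG.

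Atoh1, chr6:64728875-64729174, plus strand: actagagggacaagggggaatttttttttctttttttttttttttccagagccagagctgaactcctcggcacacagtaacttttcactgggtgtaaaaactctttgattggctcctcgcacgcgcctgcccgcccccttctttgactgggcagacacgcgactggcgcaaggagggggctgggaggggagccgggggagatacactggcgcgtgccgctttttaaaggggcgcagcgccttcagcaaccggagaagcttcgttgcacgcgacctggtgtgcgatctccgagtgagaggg

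Gfi1, chr5:107725756-107726055, minus strand: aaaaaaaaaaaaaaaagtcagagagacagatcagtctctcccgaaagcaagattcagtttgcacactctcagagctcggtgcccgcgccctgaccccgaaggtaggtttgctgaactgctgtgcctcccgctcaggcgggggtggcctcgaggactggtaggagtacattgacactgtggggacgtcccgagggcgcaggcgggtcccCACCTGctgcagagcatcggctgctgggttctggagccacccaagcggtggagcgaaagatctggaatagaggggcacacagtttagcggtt

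Barhl1, chr2:28916619-28916918, minus strand: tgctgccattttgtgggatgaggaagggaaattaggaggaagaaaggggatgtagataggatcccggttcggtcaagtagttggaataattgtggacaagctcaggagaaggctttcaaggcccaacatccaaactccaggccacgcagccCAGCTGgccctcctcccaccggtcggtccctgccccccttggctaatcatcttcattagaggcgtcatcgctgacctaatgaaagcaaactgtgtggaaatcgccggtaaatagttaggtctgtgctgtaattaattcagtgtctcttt

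The Atoh1 window held no CANNTG, the Gfi1 window held 1 at position -42 from the start site and the Barhl1 window held 1 at position -99. Both strands were read, and all of these motifs but AAATCA are the same on both. CANNTG was present in 72.3% of 32851 promoter windows of the same length, so its presence is common. The Barhl1 E-box has the form CAGCTG, found in 16.3% of windows and counted within CANNTG, and the same window held 1 TAATTA, a homeodomain core found in 5.29% of windows. The GFI1 core AAATCA, found in 14% of windows, was absent from the 3 windows printed and present once in the second Barhl1 window (chr2:28912446-28912745), which also held 2 CANNTG. The second Gfi1 window (chr5:107724294-107724593) held 1 CANNTG. For Lhx3, whose windows are not printed, the first (chr2:26208200-26208499) held 0 CANNTG and the second (chr2:26206526-26206825) held 1.

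The libraries held between 28089836 and 41966310 reads on genes, and 3 reads were worth between 0.0715 and 0.107 CPM. As a check of the model, Lgr5 averaged 63.3 ± 3.03 CPM in control input and 15.9 ± 3.69 CPM in DTR input (SD, n = 4), and Slc1a3, the gene for GLAST, averaged 281 ± 14.3 CPM in control input and 236 ± 21.9 CPM in control IP. The gene of the Cre driver was thus not higher in IP by its means. Of 35 hair cell differentiation genes, 34 were above 0 in control input and only Cabp2 was at 0. Markers of other cells were present too, with summed neuron markers of 530 to 1326 CPM, Schwann cell markers of 3323 to 5400 CPM and macrophage markers of 146 to 162 CPM in control input. In these bulk samples fewer cells of a type and less RNA per cell cannot be told apart.

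All 7 members were detected in all 16 libraries and all passed the filter of 0.5 CPM in every replicate of a group. Insm1 passed it in the DTR groups only, as its lowest values were 0.238 CPM in control input and 0.262 CPM in control IP. Levels were compared between genes as CPM per kilobase of exon, which does not correct for a length effect that differs between IP and input. In control input, Pou4f3 (5.86 ± 0.557 CPM per kb, SD, n = 4) and Gfi1 (5.34 ± 0.98) were the highest and overlapped, followed by Lhx3 (3.29 ± 0.585) and Atoh1 (3.19 ± 0.724), which also overlapped, then Barhl1 (1.78 ± 0.161), Ikzf2 (0.766 ± 0.186) and Insm1 (0.182 ± 0.078). The order changed in control IP, where Atoh1 was first at 5.94 ± 2.04 CPM per kb and overlapped with no other member. Lhx3 came second at 3.30 ± 0.279 CPM per kb, and Pou4f3, Ikzf2 and Gfi1 overlapped in turn between 2.66 and 2.09 CPM per kb. In DTR IP, the levels of Ikzf2, Pou4f3, Atoh1, Lhx3 and Gfi1 lay between 3.54 and 2.28 CPM per kb, each overlapping with the next.

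**Figure D1:**
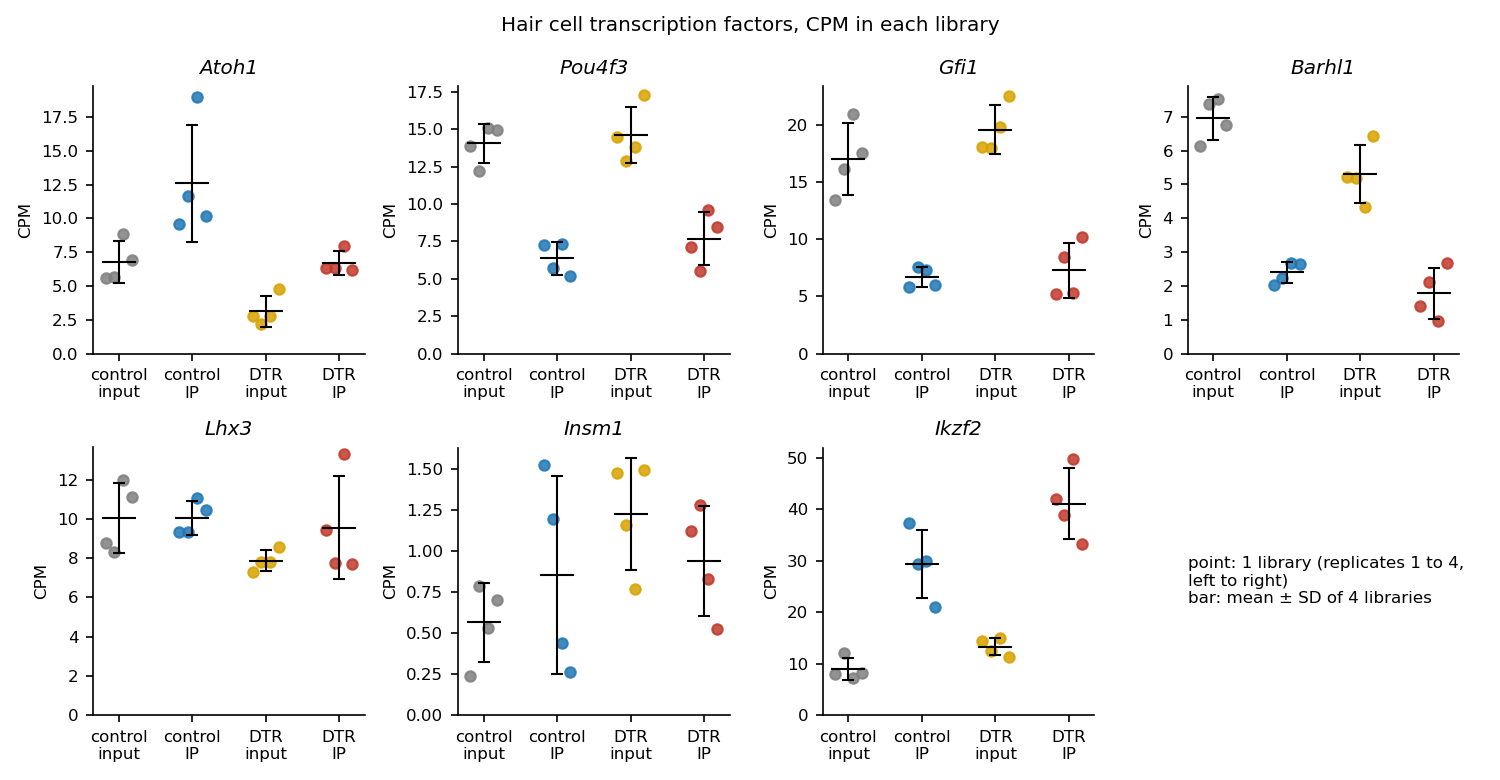
CPM of each of the 7 genes (one panel each, axis from 0) in the 4 libraries of each group, with the mean and SD. Atoh1 and Ikzf2 sit higher in IP than in input, Pou4f3, Gfi1 and Barhl1 sit lower, and the DTR values of Atoh1 lie under the control values for input and for IP alike.

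The first comparison, control IP against control input, asks which of these RNAs were associated with GLAST-Cre+ cells in the undamaged cochlea. Ikzf2 and Atoh1 were higher in IP, Pou4f3, Gfi1 and Barhl1 were lower, and Lhx3 and Insm1 did not pass the test. Values are given as CPM in replicates 1 to 4, and fold changes (LFC, log2 fold change of quantile-normalized CPM plus 0.5) come from limma with Benjamini-Hochberg adjusted p-values over 16994 genes. Of the 7 members, 2 were called higher and 3 lower at an adjusted p under 0.05, against 19.3% and 20.7% of all genes tested.

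Atoh1 measured 5.62, 5.63, 8.87 and 6.96 CPM in control input and 9.60, 11.6, 19.0 and 10.2 CPM in control IP. Every IP library was above every input library, and IP replicate 3 stood highest. The LFC was 0.86 (SE 0.24, limma adjusted p = 0.0083), and IP exceeded input in 4 of 4 pools, by 1.46 to 2.14 times. Ikzf2, a zinc finger factor of outer hair cell maturation that is also made by regulatory T cells, measured 8.05, 12.1, 7.28 and 8.18 CPM in input and 37.3, 29.4, 30.0 and 21.02 CPM in IP. The groups were far apart, with an LFC of 1.67 (SE 0.17, limma adjusted p = 3.9e-07) and ratios of 2.43 to 4.63 in the 4 pools. Before its clustering, the study corrected for an effect of gene length in the IP samples, and no such correction was made here. Ikzf2 has the longest exons of the members, 11613 bases in all, where the others have 2121 to 3905. The part of length in its ratio was not tested.

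Pou4f3, a POU domain factor that hair cells need to survive, measured 13.9, 12.2, 15.1 and 15.0 CPM in input and 7.30, 5.70, 7.35 and 5.17 CPM in IP. Its LFC was -1.01 (SE 0.18, limma adjusted p = 0.00018). Gfi1, a zinc finger repressor downstream of Pou4f3, measured 13.4, 16.1, 20.9 and 17.5 CPM in input and 5.80, 7.60, 7.26 and 6.02 CPM in IP, an LFC of -1.21 (SE 0.21, limma adjusted p = 0.00014). Barhl1, a homeodomain factor that maintains hair cells, measured 6.15, 7.38, 7.52 and 6.75 CPM in input and 2.03, 2.24, 2.67 and 2.65 CPM in IP, an LFC of -1.24 (SE 0.23, limma adjusted p = 0.00035). For these 3 genes no IP library reached an input library, and all 4 pools were lower in IP, with median ratios of IP over input of 0.477, 0.389 and 0.343.

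Lhx3, a LIM homeodomain factor, measured 8.75, 8.31, 12.0 and 11.1 CPM in control input and 9.33, 9.34, 11.1 and 10.4 CPM in IP. These values overlapped, and the LFC of 0.06 had a 95% interval of -0.34 to 0.45, which leaves room for a change of that size in either direction. Insm1, a zinc finger factor of early outer hair cells, was near the lower end of what these libraries measure, with 8 to 51 reads in each of the 16 libraries. It measured 0.238, 0.788, 0.532 and 0.699 CPM in control input and 1.53, 1.19, 0.441 and 0.262 CPM in control IP, and its LFC of 0.27 had a 95% interval of -0.30 to 0.83.

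The same comparison in the damaged cochlea, DTR IP against DTR input, gave 2 members higher and 3 lower, where 18.6% and 20.5% of all genes were called. They were the same 5 genes in the same directions as in the control pools. Atoh1 measured 2.75, 2.17, 2.78 and 4.78 CPM in DTR input and 6.33, 6.30, 7.98 and 6.18 CPM in DTR IP (LFC 1.09, SE 0.24, limma adjusted p = 0.0017), and the ratio of IP over input ran from 1.29 to 2.91 in the 4 pools. Ikzf2 measured 14.3, 12.5, 15.0 and 11.4 CPM in DTR input and 42.1, 38.9, 49.9 and 33.3 CPM in DTR IP (LFC 1.56, limma adjusted p = 1.1e-06). IP libraries lay above input libraries throughout for both genes.

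Pou4f3 measured 14.5, 12.9, 13.8 and 17.3 CPM in DTR input and 7.10, 5.52, 9.61 and 8.48 CPM in DTR IP (LFC -0.91, limma adjusted p = 0.00056). Gfi1 measured 18.02, 17.9, 19.8 and 22.5 CPM in DTR input and 5.21, 8.40, 5.30 and 10.2 CPM in DTR IP (LFC -1.44, limma adjusted p = 2.9e-05). Barhl1 measured 5.23, 5.19, 4.34 and 6.43 CPM in DTR input and 1.41, 2.10, 0.961 and 2.66 CPM in DTR IP (LFC -1.39, limma adjusted p = 0.00013). Again no IP library of these genes reached an input library. Lhx3 (7.30 to 8.56 CPM in DTR input, 7.69 to 13.3 in DTR IP) and Insm1 (0.766 to 1.49 CPM in DTR input, 0.526 to 1.28 in DTR IP) overlapped between the groups, with LFCs of 0.26 and -0.30 that did not pass the test (limma adjusted p = 0.29 and 0.40).

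**Figure D2:**
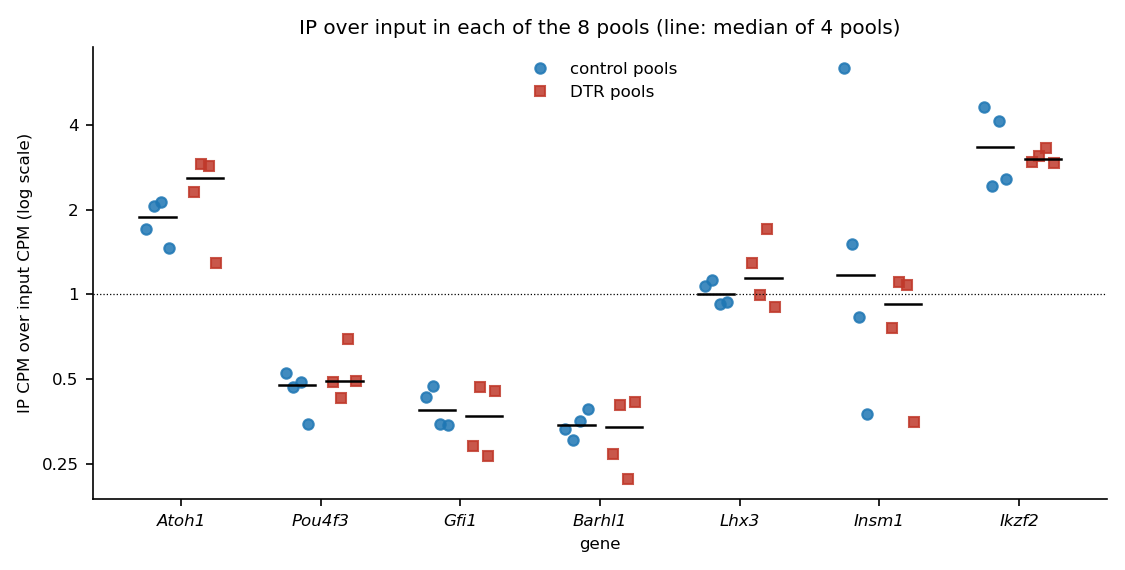
CPM in IP over CPM in input of the same pool (log axis, dotted line at 1), for 4 control pools (circles) and 4 DTR pools (squares), with the median as a line. All 8 pools lie above 1 for Atoh1 and Ikzf2 and below 1 for Pou4f3, Gfi1 and Barhl1, while Lhx3 and Insm1 have pools on both sides, Insm1 from 0.353 to 6.40.

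The split among members stood beside a shift of hair cell genes as a whole, which markers of several other cells shared. Of all genes tested, 20.7% were called lower and 19.3% higher in control IP against control input. In this comparison 12 of 12 macrophage markers were lower (median LFC -1.65), as were 9 of 9 endothelial and blood markers tested (-1.63). Schwann cell markers were lower in 8 of 10 and higher in 1 (-1.95), and mesenchyme markers were lower in 7 of 10 (-0.59). Of 34 hair cell differentiation genes tested (stereocilia, synapse, channel and calcium binding genes), 25 were lower and 5 higher in control IP than in control input, with a median LFC of -1.04 beside -0.0012 over all genes. Among the lower genes the largest changes were those of Otof, the synaptic protein otoferlin (-2.67), Strc, stereocilin (-2.62), Slc26a5, the outer hair cell motor prestin (-2.46), and Lhfpl5, of the mechanotransduction complex (-2.25). Among the genes higher in IP were Espn, Triobp, Rbm24 and Srrm4, named after their values were seen, with the splicing factor gene Srrm4 at an LFC of 0.59. In the DTR pools 21 of the 34 were lower and 3 were higher, against 20.5% and 18.6% of all genes, with a median of -0.72. In the control pools Pou4f3, Gfi1 and Barhl1 (-1.01 to -1.24) lay near the median of this list, in the DTR pools they lay below it (-0.91 to -1.44), and Atoh1 and Ikzf2 lay on the other side of 0.

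**Figure D3:**
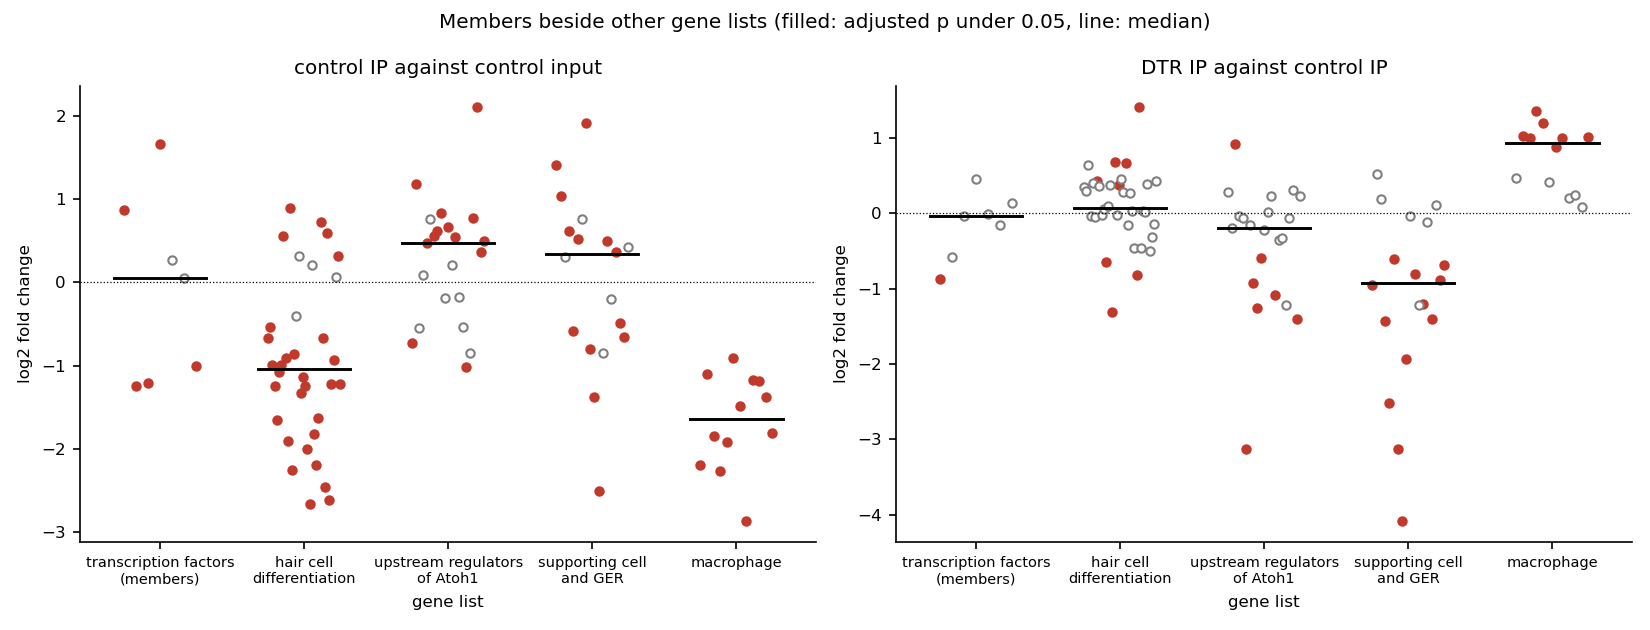
LFC of each tested gene in 5 lists, for control IP against control input (left) and DTR IP against control IP (right), with filled points at an adjusted p under 0.05 and the list median as a line. On the left the hair cell differentiation genes centre on -1.04 and the macrophage markers on -1.65 while the 7 transcription factors run from -1.24 to 1.67, and on the right the supporting cell and GER markers centre on -0.92.

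The comparison of DTR IP with control IP asks what differed in the RNA of GLAST-Cre+ cells after ablation of Lgr5+ cells. In mice with a GLAST-Cre reporter, the study found a loss of labelled inner phalangeal cells after damage. Control IP and DTR IP may thus sample different mixes of cells, and the part of this in the values was not tested. Atoh1 was lower, 6.18 to 7.98 CPM in DTR IP against 9.60 to 19.0 CPM in control IP. The ranges did not overlap, and the LFC was -0.87 (SE 0.24, limma adjusted p = 0.020), which is 1.82 times lower. It was the single member called, where 8.44% of all genes were called higher and 7.3% lower. The call was lost without control IP replicate 3 (LFC -0.66, limma adjusted p = 0.087), without DTR IP replicate 1 (-0.81, adjusted p = 0.056), without both libraries of DTR pool 1 (-0.81, adjusted p = 0.061) and with no filter on low values (-0.87, adjusted p = 0.051). Over 19 alternatives the adjusted p for Atoh1 ran from 0.0015 to 0.087, and 15 of them kept the call.

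Pou4f3, Gfi1, Lhx3 and Insm1 overlapped between control IP and DTR IP, with LFCs of 0.14, -0.03, -0.16 and -0.01. The 95% intervals were -0.24 to 0.51 for Pou4f3, -0.47 to 0.40 for Gfi1, -0.55 to 0.24 for Lhx3 and -0.58 to 0.56 for Insm1, and the sign for Gfi1 and Insm1 flipped under other scalings. Barhl1 and Ikzf2 lay between these and Atoh1. Barhl1 had an LFC of -0.58 (limma adjusted p = 0.11, and 0.045 with the replicate block), and Ikzf2 an LFC of 0.45 (limma adjusted p = 0.081, and 0.036 with the replicate block). With the replicate number as a block, 3 members were thus called in place of 1. Over all 19 alternatives the adjusted p ran from 0.023 to 0.30 for Barhl1 and from 0.036 to 0.22 for Ikzf2.

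DTR input against control input asks the same question for the whole dissected duct. Atoh1 was lower here as well, 2.17 to 4.78 CPM in DTR input against 5.62 to 8.87 CPM in control input with no overlap. The LFC was -1.09 (SE 0.24, limma adjusted p = 0.0050), 2.12 times lower, and it passed in all 19 alternatives, with values from -1.30 to -0.94. Ikzf2 was higher, 11.4 to 15.0 CPM in DTR input against 7.28 to 12.1 CPM in control input. Its ranges overlapped, with control input replicate 2 above DTR input replicate 4, and the LFC was 0.55 (SE 0.17, limma adjusted p = 0.037). One member higher and 1 lower compare with 7.17% and 5.21% of all genes.

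The call for Ikzf2 did not survive the removal of DTR input replicates 1 (limma adjusted p = 0.085), 2 (0.063) or 3 (0.11) or of control input replicates 1 (0.096), 3 (0.11) or 4 (0.086), the removal of DTR pool 1 (0.10), a model of the 2 groups alone (0.051) or the absence of a filter (0.062). The other 10 of 19 alternatives kept it, with adjusted p-values from 0.013. The other members were not called. Barhl1 measured 4.34 to 6.43 CPM in DTR input against 6.15 to 7.52 CPM in control input (LFC -0.43, 95% interval -0.92 to 0.06), Lhx3 7.30 to 8.56 against 8.31 to 12.0 CPM (-0.37, -0.76 to 0.03) and Insm1 0.766 to 1.49 against 0.238 to 0.788 CPM (0.56, -0.01 to 1.13). Pou4f3 and Gfi1 had LFCs of 0.03 (-0.34 to 0.41) and 0.19 (-0.24 to 0.63).

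Markers of other cells moved with damage. Of all genes tested, 8.44% were called higher in IP, and 7.17% higher and 5.21% lower in input. In DTR IP against control IP, the libraries in which Atoh1 was lower, macrophage markers were higher in 7 of 12 (sums of 54.0 to 91.5 CPM against 27.8 to 43.0 CPM, none at 0), mesenchyme markers in 6 of 10 (15295 to 20033 against 10425 to 15944 CPM, none at 0) and lymphocyte markers in 3 of 5 tested (22.3 to 32.9 against 11.8 to 16.2 CPM, with Ms4a1 at 0 in both groups and Ctla4 at 0 in control IP). In the inputs, lymphocyte markers summed to 9.82 to 12.1 CPM in control input and 20.8 to 35.2 CPM in DTR input, and 4 of 5 tested were higher, while Foxp3, the defining factor of regulatory T cells, measured 0.0518 to 0.197 CPM in control input and 0.102 to 0.295 CPM in DTR input, near the value of 3 reads, and Ctla4 was at 0 in both. Macrophage markers were higher in 8 of 12, with sums of 205 to 329 CPM in DTR input against 146 to 162 CPM, and none was at 0. Neutrophil markers, listed because Gfi1 also acts in myeloid cells, summed to 41.0 CPM in DTR input replicate 1 and to 6.001 to 10.4 CPM in the other 3 DTR input libraries, while Gfi1 was 18.02 CPM in that library and 17.9 to 22.5 CPM in the others. Schwann cell markers were lower in 7 of 10 in DTR input. The part of these cells in the values of the members was not tested.

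The damage change in IP minus the damage change in input was called for 0 of 7 members, and 2 of 16994 genes (0.0118%) were called at all. No member had an unadjusted p under 0.05, where 870 of all genes did, and edgeR and DESeq2 also called 0 members. For Atoh1 the difference was 0.22 with a 95% interval of -0.50 to 0.94, so differences up to those bounds lie within the error of 4 libraries a group. Insm1 had the widest interval, -1.37 to 0.23 around -0.57. The comparisons above share libraries, since each group enters 2 of them, and the LFCs of a member in them are therefore not independent.

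**Figure D4:**
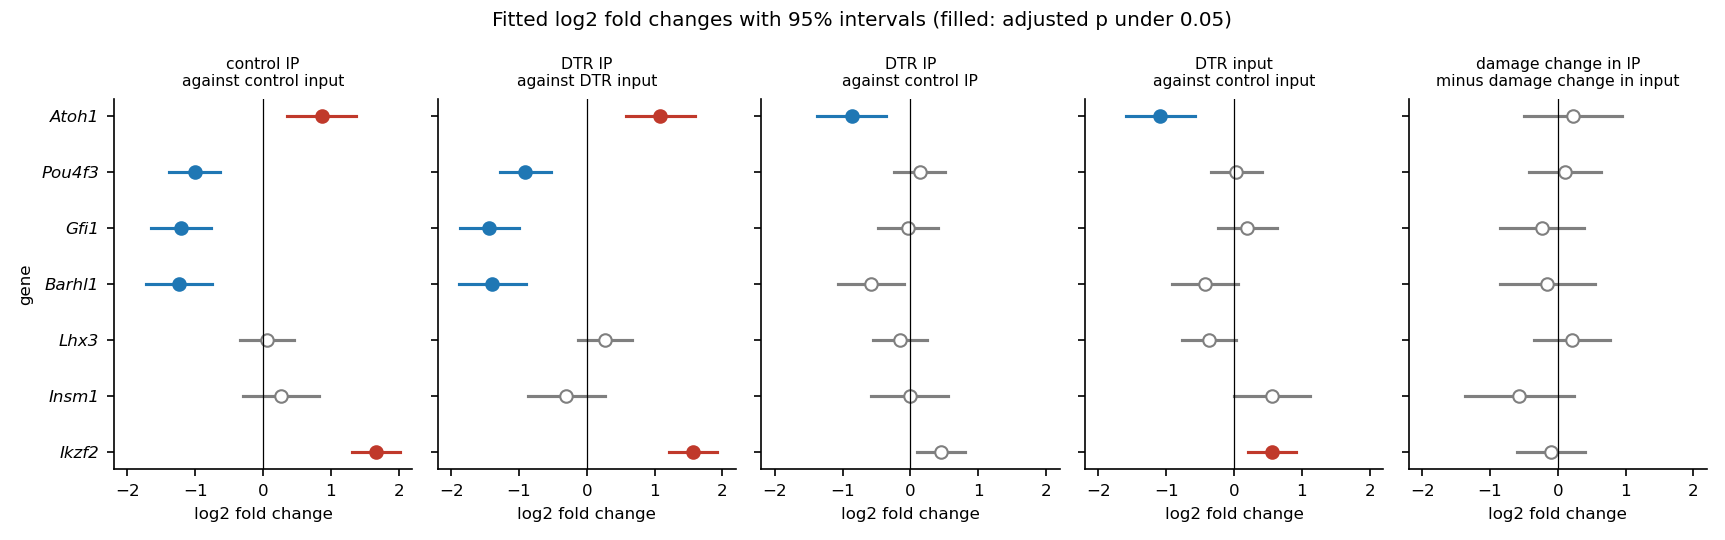
LFC of each member with its 95% interval in the 4 comparisons and in the difference between the damage changes, with filled points at an adjusted p under 0.05 (red higher, blue lower). The intervals of Atoh1 lie left of 0 in both comparisons of DTR with control, and all 7 intervals of the difference include 0.

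Under the criteria of the study for a change after damage (adjusted p under 0.05, absolute LFC of at least 1 and a separation above 1.5), 0 members passed in DTR IP against control IP, where 2.47% of genes did, and 0 passed in DTR input against control input, where 2.34% did. Separation is the lowest value of the higher group over the highest of the lower group. Atoh1 had a separation of 1.19 in IP and 1.11 in input, and without that criterion it alone passed, in input.

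In control IP against control input, 19.3% of all genes tested were called higher and 20.7% lower. Genes around Atoh1 were examined as a list of 21 upstream regulators. In control IP 11 were higher than in input and 2 lower, with Sox11 the most (LFC 2.11, limma adjusted p = 1e-05), followed by the Notch ligand gene Dll1 (1.18), and with the receptor gene Notch1 the lowest (-1.02). After damage 7.3% of all genes were called lower and 8.44% higher in IP, and 5.21% and 7.17% in input. Of the 21 regulators, 6 were lower and 1 higher in IP, and 6 were lower and 0 higher in input. Their medians were -0.19 and -0.16 beside -0.0043 and -0.021 over all genes. Hes5, a Notch target that represses Atoh1, had the largest change, with 10.9 ± 3.31 CPM in control IP and 0.962 ± 0.613 CPM after damage (SD, n = 4, LFC -3.13, limma adjusted p = 6.4e-07) and with 6.51 and 0.549 CPM in the inputs (-2.76, adjusted p = 2.9e-06). Sox2, an activator of Atoh1 in the prosensory cells, was lower in both (-1.40 and -1.05), as were the repressor gene Hey2 (-1.26 and -1.43) and the inhibitor gene Id4 (-1.09 and -0.92). The study tested the change of Id4 after damage with a second RNA assay, nCounter, which did not bear it out. The 1 gene higher in IP was Dll3 (0.92, adjusted p = 0.030). Of 18 supporting cell and GER markers, 12 were lower in DTR IP and 11 in DTR input, and 0 and 2 were higher, with Lfng lowest at -4.08 and -3.35. Sox2, Prox1 and Hes5 belong to this list and to the regulators, so the counts of the lists share genes. Atoh1, Hes5 and Hey2 were thus lower in the same DTR libraries.

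Mature hair cell genes were called in both directions. Over all genes tested, 8.44% were called higher and 7.3% lower in DTR IP against control IP. In DTR input against control input, 7.17% were called higher and 5.21% lower. Of the 34 differentiation genes, 5 were higher and 3 lower in IP, and 2 were higher and 3 lower in input, with medians of 0.08 and 0.0025. Slc17a8, the vesicular glutamate transporter of inner hair cells, was higher in DTR IP (LFC 1.42, limma adjusted p = 0.00065). The unconventional myosin gene Myo15 was higher in both (0.68 and 0.95), in IP only just under the threshold (limma adjusted p = 0.049 and 0.0085). Mreg was lower in both (-1.31 and -0.98).

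Of 12 paralogs of the members, 6 reached the expression filter, and Barhl2 was at 0 in every library outside the DTR IP group. Ikzf4, of the same zinc finger family as Ikzf2, measured 8.29 ± 1.19 CPM in control input and 38.7 ± 10.4 CPM in control IP (SD, n = 4), an LFC of 2.12 (limma adjusted p = 3.8e-08), and it was also higher in DTR IP than in DTR input (1.54). It was higher in DTR input than in control input (0.89, adjusted p = 0.0019) and was not called in DTR IP against control IP (0.31, adjusted p = 0.28). Ikzf5 was higher in IP in both treatments (0.89 and 1.14).

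Of 13 partners and cofactors, all passed the filter. In control IP 4 were higher and 1 lower than in input, and in DTR IP 5 were higher and 3 lower than in DTR input, where each direction took between 18.6% and 20.7% of all genes. Isl1, a LIM homeodomain factor of the developing ear, was the most abundant of the higher ones at 998 ± 201 CPM in control IP against 274 ± 40.0 CPM in control input (SD, n = 4, LFC 1.91, limma adjusted p = 1.9e-08), and it was lower after damage in IP (-0.69, adjusted p = 0.0035) and in input (-0.50, adjusted p = 0.037). Its binding partners Ldb1 (0.63) and Ldb2 (0.99) were higher in control IP, whereas Kdm1a, a demethylase that works with Gfi1, was lower (-0.27, adjusted p = 0.039). After damage the E protein genes Tcf4 (0.37) and Tcf12 (0.45), whose products pair with Atoh1, and Ldb2 (0.42) were higher in IP, and in input only Isl1 was called.

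Profiles over the 16 libraries were compared as a description, since the points share 4 groups and 8 pools. Among the members, Gfi1 and Barhl1 were the most alike (Pearson's r = 0.90, n = 16 libraries), followed by Pou4f3 and Gfi1 (0.87) and Pou4f3 and Barhl1 (0.76). Atoh1 was most like Lhx3 (0.72), and Barhl1 and Ikzf2 were the most opposed (-0.95). Of all tested genes, those with a profile close to that of Atoh1 included Gm42528 (0.95) and Gm807 (0.94). That of Pou4f3 was most like those of Higd1b (0.96), Ocm, the outer hair cell calcium buffer oncomodulin (0.96), and Cd164l2 (0.95), and that of Gfi1 most like those of Dennd1a (0.96), Usp54 (0.95) and Otoa (0.95). The mean profile of the 7 members was followed less closely, by Slc43a2 (0.81), Mfng (0.80), Nup205, 9130023H24Rik, Wbp1, Tmcc2, Lmod3, Fgd2, 9330136K24Rik and Cldn14 (0.75).

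Reads of Atoh1 over reads of Pou4f3 had a median of 0.463 in control input (0.404 to 0.587) and 2.00 in control IP (1.32 to 2.58). After damage the medians were 0.195 for input (0.168 to 0.276) and 0.861 for IP (0.729 to 1.14), and none of the 4 ranges overlapped. Gfi1 over Pou4f3 stayed between 0.552 and 1.52 in all libraries, with overlapping ranges. These ratios restate the values above and were not tested.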

How the data were processed

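The authors deposited CPM per gene, aligned to GRCm38 with HISAT2 (version 2.0.4, per the methods of the study, while the submitters' processing notes name TopHat) and counted on coding regions with HTSeq. The annotation release and strand setting are not given in the sources used here. All values were whole reads to within 0.1 read, so reads were recovered for count tools. Of 50316 genes listed, 2587 were NA in every library.

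CPM were quantile normalized and log2 transformed with a pseudocount of 0.5, and 16994 genes that reached 0.5 CPM in every replicate of 1 group or more were tested in a single model of the 16 libraries by limma (3.58.1, under R 4.3.3, trend, two-sided, Benjamini-Hochberg, threshold 0.05). Fold changes are on that scale, understate changes of low genes and carry no correction for gene length. The p-values measure the spread between libraries of a group, and the main model treats all libraries as independent although input and IP share pools. Floors in reads cover counting error only. The separation floor was 1.08 CPM. The procedure was run on simulated reads with known changes, drawn independently for each library, so shared pools were not part of that test.

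Input and IP of a replicate number share a pool by the methods of the study. Deviations of same-numbered libraries correlated in every pair (lowest r 0.288, mean over pairs of 0.357 to 0.407), so the numbers were used as a replicate block in an alternative. Other alternatives were the scaling, the pseudocount (0.1, 1), the filter (none, 2 CPM), the groups modelled, edgeR (version 4.0.16), DESeq2 (version 1.42.0) and each library left out.

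The members and lists were chosen with earlier results of these data known. Named genes were the members, up to 4 called genes a list and comparison by the size of the LFC, the paralogs, partners and regulators counted, and the 10 (mean profile) or 3 (Atoh1, Pou4f3, Gfi1) genes with the highest Pearson's r. Positions and exon lengths came from GENCODE M21 and promoters from RefSeq. Sequence on chromosome 18 and promoters without a window were not used here. Some genes that the rule names are not reported here.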

Additional observations from a re-analysis of the deposited data

Results flagged for a closer look

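Atoh1 in DTR IP replicate 3, at 7.98 CPM, stood apart from the other 3 libraries of its group, which lay between 6.18 and 6.33 CPM. Its gap to the nearest of them was 0.917 of the range of the group, above Dixon's 95% critical value for 4 libraries. It was the only case among 28 groups of 4 libraries (7 members in 4 groups), and chance gives about 1 in 20.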

How the results depend on the processing

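The counts of members called in control IP against control input (5) and in DTR IP against DTR input (5) held in every alternative, for the same 5 genes, as did the count of 0 for the difference between the damage changes. Over all genes that difference called 2, and 0 to 49 in the alternatives (0 with edgeR, 40 with the replicate block by pool, 49 with DESeq2). In DTR IP against control IP, 1 member was called in the main model, 0 with no filter on low values or without DTR pool 1, 3 with the replicate block (Atoh1, Barhl1 and Ikzf2), and 0 to 2 with single libraries left out. In DTR input against control input, 2 were called, and 1 with no filter, with the compared groups alone or without DTR pool 1, and 1 to 2 with single libraries left out. The replicate block changed no other call. Leaving out DTR pool 1 was chosen after the data were seen. Without the separation criterion 1 member passed the criteria of the study, in place of 0. The cause was not tested.

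Uncalled values near 0 changed sign. In DTR IP against control IP the LFC of Gfi1 became 0.0711 without quantile normalization, 0.0273 with median centring, 0.0560 with edgeR, 0.0586 with DESeq2 and 0.13 without DTR pool 1, and that of Insm1 became 0.171, 0.127, 0.0698 and 0.0800 in the first 4 of these and 0.0306 with a pseudocount of 0.1. With single libraries left out, the LFC ranged from -0.22 to 0.13 for Gfi1 and -0.23 to 0.22 for Insm1 in this comparison, from -0.0542 to 0.159 for Lhx3 in control IP against control input, and from -0.0527 to 0.0859 for Pou4f3 in DTR input against control input. For the difference between the damage changes it ranged from -0.0147 to 0.232 for Pou4f3, -0.363 to 0.0600 for Barhl1 and -0.233 to 0.00301 for Ikzf2. Insm1 was not tested at a filter of 2 CPM. With 8 to 51 reads a library, depth limits what can be said of it.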
